A study of Homo sapiens with 6 samples.

Results

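The genes described here are targets and feedback inhibitors of Wnt signalling: SP5, DKK1, AXIN2, LGR5, NKD1, ZNRF3, RNF43, LEF1, TCF7 and NOTUM. They were chosen by symbol, with earlier results of these data known, by a rule that uses no values. Of the 10 symbols, 9 are among the 11456 genes with values, and LEF1 was not analysed here. The cells were HepG2-hCAR, a line grown from 1 cell of the hepatocellular carcinoma line HepG2 after lentiviral transfer of a doxycycline-inducible human cDNA of the constitutive androstane receptor (CAR), a nuclear receptor of hepatocytes whose gene is NR1I3. Cells given 1 µg/ml doxycycline for 72 h were compared with cells given vehicle for 72 h, with 3 RNA sequencing libraries in each group. Cells of both groups carry the construct and the puromycin selection that went with it. No library had doxycycline without the construct, so the antibiotic and the receptor cannot be told apart.

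In canonical Wnt signalling, secreted Wnt proteins bind Frizzled receptors with the coreceptors LRP5 or LRP6, which stops a destruction complex from marking beta-catenin for degradation. Beta-catenin then joins TCF and LEF factors on DNA and activates target genes, and many of these targets encode inhibitors of the same pathway, so their mRNA is widely read as a measure of its output. In the liver the pathway sets gene expression around the central vein. HepG2 cells carry a deletion in CTNNB1, the beta-catenin gene, that removes the sites through which the protein is marked, so the pathway is active in them without added Wnt protein.

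Of the 9 genes, 4 fell and 3 rose with doxycycline, beside 13.6% called lower and 15.2% called higher of all genes tested. Of the Wnt genes that changed, 1 rose and 1 fell among the secreted proteins, among the membrane proteins and among the cytoplasmic proteins, and the only nuclear protein that changed fell. SP5, a zinc finger transcription factor, and DKK1, a secreted inhibitor that binds LRP5 and LRP6, fell to 0.471 and 0.516 times their vehicle level. LGR5, a receptor for R-spondins, and AXIN2, a scaffold of the destruction complex, fell less. NKD1, NOTUM and RNF43, which are inhibitors of the pathway as well, rose 1.31-fold, 1.29-fold and 1.26-fold. ZNRF3 and TCF7 did not pass the test. The test was limma on log2(FPKM + 1) of 10469 genes, with Benjamini-Hochberg adjustment over all of them, and a call needs an adjusted p below 0.05. All 9 genes with values passed the filter on low values, a mean FPKM of at least 1. FPKM, in which fragments are divided by transcript length and by all mapped fragments, is relative to the library, so it does not measure an absolute amount of mRNA.

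The start of SP5 and of DKK1 is shown because these genes fell most and because TCF and LEF factors bind a short DNA motif. The windows hold the bases before the annotated start, from RefSeq on GRCh38.p14, and 5 of the 10 symbols matched that table: SP5, DKK1, RNF43, TCF7 and LEF1. AXIN2, LGR5, NKD1, ZNRF3 and NOTUM did not match. Capitals mark each match, on either strand, of CTTTGAA, of CTTTGAT, of CTTTGTA and of CTTTGTT, which are the forms of the TCF and LEF core motif.
SP5, chr2:170715087-170715336, plus strand: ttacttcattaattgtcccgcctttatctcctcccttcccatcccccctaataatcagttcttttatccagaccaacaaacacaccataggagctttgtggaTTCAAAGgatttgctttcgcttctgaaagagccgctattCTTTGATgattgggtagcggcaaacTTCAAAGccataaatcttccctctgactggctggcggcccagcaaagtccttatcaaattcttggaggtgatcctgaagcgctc
DKK1, chr10:52314031-52314280, plus strand: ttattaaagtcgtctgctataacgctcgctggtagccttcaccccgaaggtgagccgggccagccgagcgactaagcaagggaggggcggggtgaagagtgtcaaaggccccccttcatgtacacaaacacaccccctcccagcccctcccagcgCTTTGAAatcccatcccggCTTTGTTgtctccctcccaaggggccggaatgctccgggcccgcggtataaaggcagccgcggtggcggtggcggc
RNF43, chr17:58417596-58417784, minus strand: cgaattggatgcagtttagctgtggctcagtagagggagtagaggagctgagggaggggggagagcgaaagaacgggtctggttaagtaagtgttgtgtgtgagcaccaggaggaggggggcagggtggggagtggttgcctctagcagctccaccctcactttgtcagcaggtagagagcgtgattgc

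The SP5 window holds 3 matches, 1 of CTTTGAT and 2 of CTTTGAA on the other strand, and the DKK1 window holds 2, 1 of CTTTGAA and 1 of CTTTGTT. The RNF43 window, shown as a gene that rose and cut at the start that GENCODE 29 gives, holds 0, as does the window of a second RNF43 start. Of the windows of 2 TCF7 starts, 1 holds a match of CTTTGTT on the other strand and 1 holds 0, though TCF7 did not pass the test, and the LEF1 window holds 0. With so few windows no contrast between genes that fell and genes that rose is drawn. The motif is common: of 35116 windows of 250 bases before a start, 11.96% hold at least 1 match and 1.207% hold 2 or more. These matches are letters in a window, and no binding was measured. Among the 861 tested genes whose window holds a match, 15.3% were called lower and 18.5% higher, beside 13.2% and 15.03% of the 8263 tested genes with a window, which is given as a description with no test.

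Among the secreted inhibitors, DKK1 (chromosome 10 of GRCh37, 54074056 to 54077802, plus strand) had 12.4, 13.2 and 13.3 FPKM in the doxycycline libraries, against 23.9, 25.1 and 26.3 FPKM in the vehicle libraries. All doxycycline values were far below the lowest vehicle value, and the spread within each group was small. The log2 fold change, the difference of mean log2(FPKM + 1) between doxycycline and vehicle, was -0.90 (SE 0.05, adjusted p = 8.13e-05). NOTUM (chromosome 17, 79910383 to 79919716, minus strand) encodes a secreted enzyme that removes the lipid Wnt proteins need to bind Frizzled. It had 55.5, 54.7 and 55.5 FPKM with doxycycline, against 42.7, 42.9 and 43.2 FPKM with vehicle. The NOTUM values of a group lay within 1 FPKM of each other, every doxycycline value was above every vehicle value, and the log2 fold change was 0.36 (SE 0.02, adjusted p = 1.84e-04). The summed level of DKK1 and NOTUM was 68.2 ± 0.516 FPKM with doxycycline and 68.0 ± 1.499 FPKM with vehicle (mean ± SD, n = 3 libraries each). The share of the pair that came from NOTUM differed, while the sum differed by less than the spread between libraries. The sum joins a gene that fell and a gene that rose, so it is given as a description with no test.

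Among the membrane proteins, LGR5 (chromosome 12, 71833550 to 71980090, plus strand), which strengthens Wnt signalling when R-spondin is bound, had 32.7, 33.9 and 33.4 FPKM with doxycycline, against 41.2, 43.5 and 43.8 FPKM with vehicle. The groups did not overlap, and the log2 fold change was -0.35 (SE 0.03, adjusted p = 8.82e-04). TSPAN8 overlaps LGR5 on the opposite strand, and whether the authors' counting used the strand is not given in the sources used here. RNF43 (chromosome 17, 56429861 to 56494956, minus strand) and ZNRF3 (chromosome 22, 29279580 to 29453475, plus strand) are related membrane ubiquitin ligases that remove Frizzled receptors from the cell surface, and R-spondin with an LGR receptor removes the ligases. RNF43 had 31.1, 31.5 and 31.0 FPKM with doxycycline, against 24.7, 24.9 and 24.5 FPKM with vehicle. RNF43 varied by less than 1% (SD over mean) in each group, and it rose by 0.33 on the log2 scale (SE 0.03, adjusted p = 3.83e-04). SUPT4H1 overlaps RNF43 on the same strand, so fragments in the shared stretch could have been counted for either.

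ZNRF3 had 18.9, 19.9 and 18.4 FPKM with doxycycline, against 21.3, 20.5 and 19.7 FPKM with vehicle. The ranges overlapped, and the log2 fold change of -0.10 did not pass the test (adjusted p = 0.151), with a 95% interval of -0.21 to 0.01. That interval lies below the increase of RNF43, whose 95% interval was 0.26 to 0.39. The summed level of both ligases was 50.3 ± 1.03 FPKM with doxycycline and 45.2 ± 0.907 FPKM with vehicle (mean ± SD, n = 3 libraries each).

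Among the cytoplasmic proteins, AXIN2 (chromosome 17, 63524681 to 63557765, minus strand), the most widely used readout of canonical signalling, changed least among the genes that were called. It had 26.1, 27.7 and 27.4 FPKM with doxycycline, against 29.4, 31.5 and 30.3 FPKM with vehicle. The groups did not overlap, though the gap between them was less than 2 FPKM. The log2 fold change was -0.16 (SE 0.04, adjusted p = 0.0281), and the call ended without doxycycline replicate 1 (adjusted p = 0.0780) or 3 (0.0632) and without vehicle replicate 2 (0.0774) or 3 (0.0722), over a range of 0.0193 to 0.0780 in all alternatives. NKD1 (chromosome 16, 50582241 to 50683160, plus strand), which binds Dishevelled and limits the signal, had 44.4, 45.3 and 43.6 FPKM with doxycycline, against 33.5, 34.7 and 33.6 FPKM with vehicle. All doxycycline libraries were higher than all vehicle libraries, with a log2 fold change of 0.38 (SE 0.03, adjusted p = 3.31e-04), and NKD1 had the largest increase of the 9 genes.

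In the nucleus, SP5 (chromosome 2, 171571861 to 171574588, plus strand), a direct beta-catenin target that can repress other targets of the pathway, had 18.5, 20.7 and 21.9 FPKM with doxycycline, against 42.4, 43.2 and 44.0 FPKM with vehicle. The groups were widely separated, and the doxycycline libraries differed more among themselves (SD over mean 8.30%) than the vehicle libraries (1.83%). Its log2 fold change of -1.05 (SE 0.06, adjusted p = 1.07e-04) was larger in size than that of 98.1% of all genes tested, and that of DKK1 was larger than 97.3%. TCF7 (chromosome 5, 133450402 to 133487556, plus strand), which encodes the DNA-binding factor TCF1, was weakly expressed, with 1.39, 1.504 and 1.61 FPKM with doxycycline against 1.28, 2.35 and 2.06 FPKM with vehicle. Vehicle replicate 1 was the lowest of the 6 libraries and the groups overlapped. The log2 fold change of TCF7 was -0.20 (95% interval -0.55 to 0.16, adjusted p = 0.363), and without vehicle replicate 1 it was -0.36 and passed the test (adjusted p = 0.0265). Without vehicle replicate 2 it was -0.0821 (adjusted p = 0.710), so its size depended on the library left out.

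**Figure D1:**
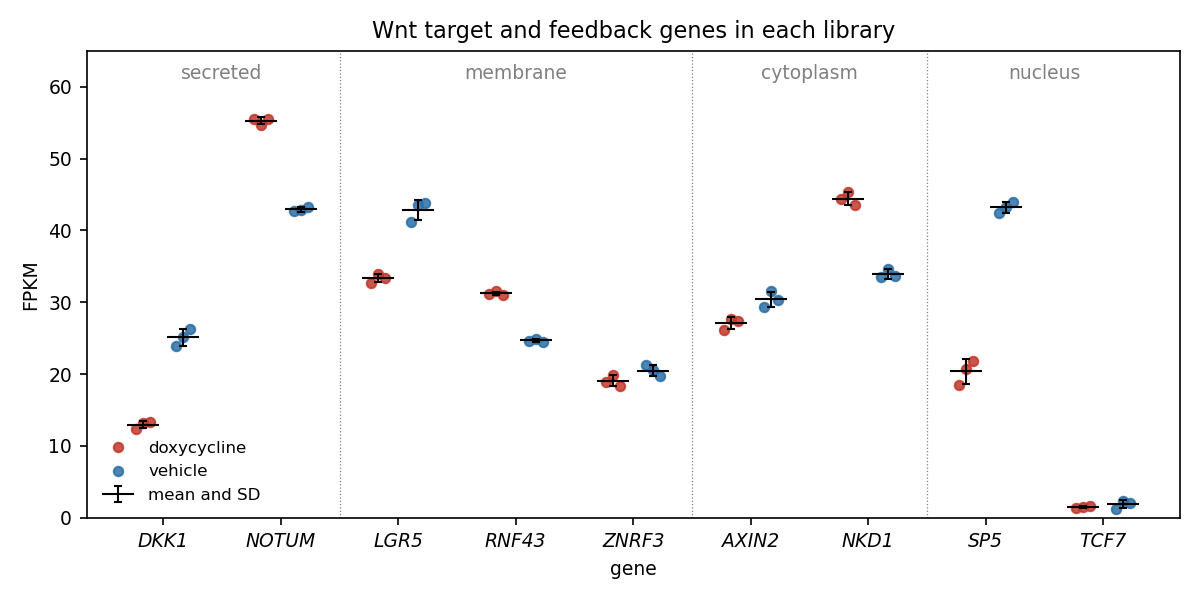
FPKM (vertical axis) of the 9 genes (horizontal axis) in each library, with doxycycline in red left of vehicle in blue, and black bars for the mean and SD of 3 libraries. In the secreted and cytoplasmic groups 1 gene is higher and 1 lower with doxycycline, and SP5 and DKK1 show the widest gaps relative to their level.

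Of all genes tested, 28.8% were called, so 7 of 9 called genes stand beside that share, and 34.1% were called among the 6469 genes whose mean FPKM reached 5, where 8 of the 9 lie. By direction, 4 of 9 were lower, beside 13.6% of all genes, and 3 of 9 higher, beside 15.2%. In 7 of the 9 the groups did not overlap, beside 47.1% of all genes. The median log2 fold change was -0.16 over the 9 genes and 0.01 over all genes tested. With the exception of TCF7, the genes were among the more abundant mRNAs, with mean FPKM above that of 80.6% (DKK1) to 94.0% (NOTUM) of the genes tested. Their spread within a group, 0.665% to 8.30% of the mean without TCF7, can be set beside a median of 5.62% over all genes in the doxycycline libraries and 5.58% in the vehicle libraries.

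**Figure D2:**
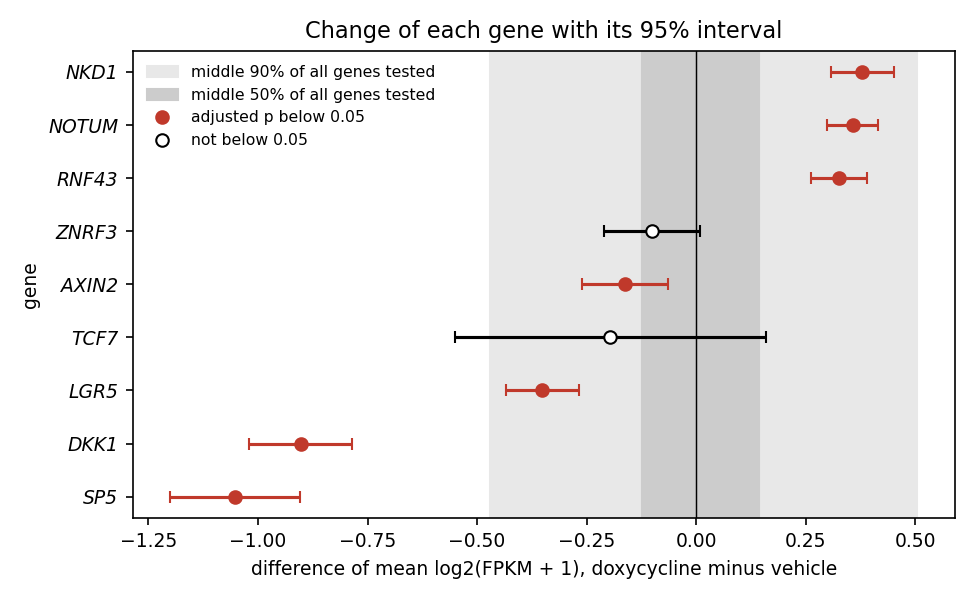
Difference of mean log2(FPKM + 1), doxycycline minus vehicle (horizontal axis), for the 9 genes (vertical axis), with 95% intervals from limma and grey bands for the middle 50% and 90% of all genes tested. SP5 and DKK1 lie outside the wider band, which ends at -0.47 and 0.51, and the other 7 lie inside it.

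The order of the genes by FPKM, which is scaled to transcript length, differed between the groups. With doxycycline the order was NOTUM (55.3 FPKM), NKD1 (44.4), LGR5 (33.4), RNF43 (31.2), AXIN2 (27.1), SP5 (20.4), ZNRF3 (19.1), DKK1 (13.0) and TCF7 (1.499). Of these neighbours, only SP5 and ZNRF3 had overlapping ranges. With vehicle, SP5 (43.2 FPKM), NOTUM (42.9) and LGR5 (42.8) were highest with overlapping ranges, followed by NKD1 (33.9), AXIN2 (30.4), DKK1 (25.1) and RNF43 (24.7), whose ranges overlapped, ZNRF3 (20.5) and TCF7 (1.90). The summed level of the 9 genes was 245 ± 3.77 FPKM with doxycycline and 265 ± 4.59 FPKM with vehicle (mean ± SD, n = 3 libraries each).

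Ratios between genes within a library do not depend on how the libraries were scaled, and 4 were computed for pairs chosen after their values were seen. The ratio of NOTUM to SP5 was 2.997, 2.64 and 2.54 in the doxycycline libraries, against 1.01, 0.992 and 0.982 in the vehicle libraries. The ratio of NOTUM to DKK1 averaged 4.27 ± 0.181 with doxycycline and 1.71 ± 0.0722 with vehicle (mean ± SD, n = 3 libraries each). The ratio of NKD1 to AXIN2 averaged 1.64 ± 0.0548 with doxycycline and 1.12 ± 0.0207 with vehicle. The ratio of RNF43 to ZNRF3 averaged 1.64 ± 0.0517 with doxycycline and 1.21 ± 0.0427 with vehicle. Each pair sets a gene that rose over one that fell or did not pass, so the direction was fixed by the choice of pairs, and the ratios are given as a description with no test.

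**Figure D3:**
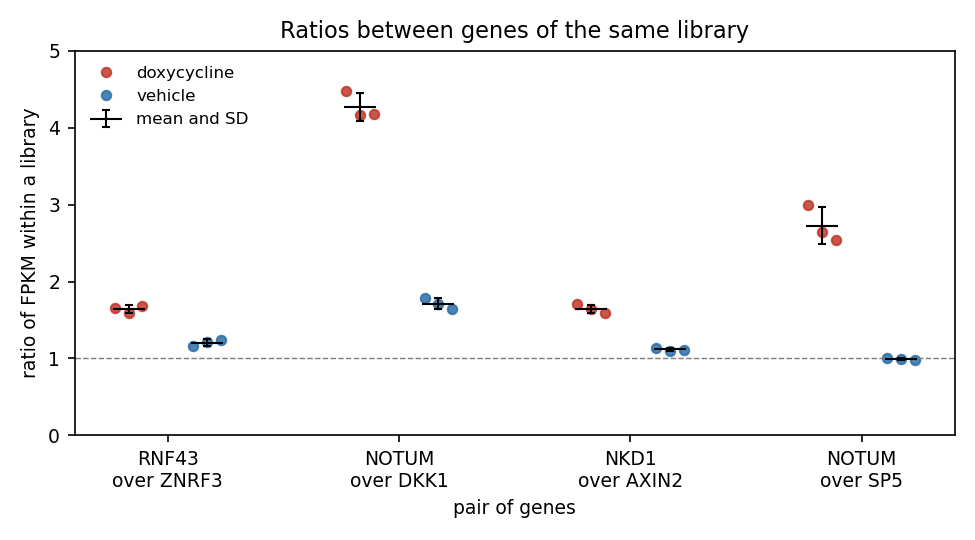
Ratio of the FPKM of a pair of genes within each library (vertical axis) for 4 pairs (horizontal axis), doxycycline in red left of vehicle in blue, with the mean and SD of 3 libraries and a dashed line at 1. The NOTUM to SP5 ratio is near 1 in all vehicle libraries and above 2.5 in all doxycycline libraries.

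NR1I3, the induced gene, had 331, 317 and 316 FPKM with doxycycline, against 3.15, 3.01 and 3.56 FPKM with vehicle, so the libraries matched their labels. FPKM values of a library summed to 204318 to 209372, and since these values hold no counts the depth is unknown. Of 14 liver markers all were in the table and 9 fell (64.3% called). The summed FPKM of the 14 was 1493 to 1521 with doxycycline against 2786 to 2954 with vehicle. ALB, the albumin gene, had only 0.272 to 0.461 FPKM with doxycycline and 1.77 to 1.93 FPKM with vehicle. ALB and the marker AFP, which averaged 0.320 FPKM with doxycycline and 6.01 FPKM with vehicle, passed the filter on low values only through the vehicle libraries. Of 15 stromal, blood and endothelial markers 5 were in the table, and COL1A1, PTPRC and PECAM1 were not analysed here. Of the 4 that were tested LYZ, CD68 and ACTA2 fell and PDGFRB, a stromal receptor, rose 1.67-fold to 1.43 FPKM with doxycycline, against 0.856 FPKM with vehicle (adjusted p = 3.97e-03). PDGFRB passed the filter on low values only through the doxycycline libraries, the group where it was high, so its call is given as a description. CD14, a monocyte marker under the filter, had 1.85, 1.91 and 2.004 FPKM with doxycycline, against 0.0853, 0.0347 and 0.0533 FPKM with vehicle. The summed FPKM of the 5, most of it from LYZ, lysozyme, was 282 to 294 with doxycycline against 563 to 606 with vehicle. The part of these shifts in the Wnt genes' changes was not tested, and in bulk RNA fewer cells with a transcript and less of it per cell cannot be told apart.

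The rest of the pathway was described with 154 symbols in 9 lists. Values were at hand for 83 and 78 were tested. Of these 78, 20 rose and 17 fell, so 47.4% were called beside 28.8% of all genes, and their median log2 fold change was -0.00093. Among ligands and their secretion factors 3 of 21 symbols were tested and 2 rose (66.7% called). WNT7B, a ligand under the filter, was not tested and is named after its values were seen. It had 1.49, 1.23 and 1.30 FPKM with doxycycline, against 0.394, 0.341 and 0.497 FPKM with vehicle. WNT11, a ligand mostly of the noncanonical branch, had 1.49, 1.97 and 1.498 FPKM with doxycycline and 1.02, 1.08 and 1.18 FPKM with vehicle (adjusted p = 0.0315). Its call ended without vehicle replicate 1 (0.0919), 2 (0.0838) or 3 (0.0595). PORCN, the enzyme that attaches lipid to Wnt proteins, averaged 1.28 FPKM with doxycycline and 0.965 FPKM with vehicle (adjusted p = 0.0449). The call of PORCN ended without any 1 of the 6 libraries (0.0554 to 0.119), with a pseudocount of 0.1 (0.0519) and with quantile normalization (0.0602). PORCN also passed the filter on low values only through its doxycycline mean, so its call is given as a description.

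Of 9 tested receptors and coreceptors 3 rose and 2 fell (55.6% called). FZD6, a Frizzled receptor, rose most, with 12.1, 10.6 and 13.3 FPKM with doxycycline against 7.52, 8.10 and 7.84 FPKM with vehicle (log2 fold change 0.56, adjusted p = 4.02e-03). FZD4, another Frizzled receptor, averaged 10.96 and RYK, a Wnt-binding receptor, 9.05 FPKM with doxycycline, against 9.53 and 7.88 FPKM with vehicle. The calls of FZD4 and RYK (adjusted p = 0.0293 and 0.0367) ended without any of 5 libraries for each, all but vehicle replicate 2, and that of RYK also with quantile normalization (0.0530). ROR1, a noncanonical receptor, fell to 1.44 ± 0.133 FPKM with doxycycline, against 2.05 ± 0.0480 FPKM with vehicle (adjusted p = 9.24e-03). LGR4, the other R-spondin receptor with values, had 13.9, 5.97 and 14.4 FPKM with doxycycline and 18.2, 18.4 and 18.7 FPKM with vehicle. The groups did not overlap, but doxycycline replicate 2 was far below the others, and the adjusted p was 0.126, or 3.53e-03 without that library. With any other library left out, the adjusted p of LGR4 was 0.0999 to 0.229.

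Of 6 other tested inhibitors 3 fell and 1 rose (66.7% called). DKK4, a secreted inhibitor related to DKK1, had 0.303, 0.419 and 0.613 FPKM with doxycycline, against 2.22, 2.65 and 3.22 FPKM with vehicle. Its mean was 6.06-fold lower with doxycycline, a ratio that rests on values under 1 FPKM. DKK4 passed the filter on low values only through the vehicle libraries, the group where it was high, so its call is given as a description. The log2 fold change of DKK4 was -1.35 (adjusted p = 6.68e-04), and -2.38 with a pseudocount of 0.1, so its size depends on the pseudocount. CTNNBIP1, which blocks the binding of beta-catenin to TCF factors, had 18.03, 18.6 and 18.3 FPKM with doxycycline, against 34.6, 34.1 and 32.2 FPKM with vehicle (log2 fold change -0.84, adjusted p = 4.25e-05). SFRP5, a secreted Wnt-binding protein, fell to 1.47 ± 0.184 FPKM with doxycycline, against 3.04 ± 0.487 FPKM with vehicle (adjusted p = 4.12e-03). NKD2, the relative of NKD1, rose to 2.49 ± 0.106 FPKM with doxycycline, against 1.39 ± 0.189 FPKM with vehicle (adjusted p = 2.73e-03). DKK1 and DKK4 thus fell and NKD1 and NKD2 rose, pairs singled out after their values were seen.

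Of 16 tested genes of beta-catenin and its destruction complex 3 rose and 2 fell, and 11 did not pass, so 31.25% were called, near the 28.8% of all genes. CTNNB1 itself had 49.9, 51.5 and 47.3 FPKM with doxycycline, against 61.6, 55.7 and 55.7 FPKM with vehicle, a log2 fold change of -0.21. Its call (adjusted p = 0.0283) ended without doxycycline replicate 1 (0.0705) or 3 (0.0794) and without vehicle replicate 1 (0.0511). AMER1, a membrane scaffold of the complex, fell to 1.26 ± 0.119 FPKM with doxycycline, against 2.39 ± 0.131 FPKM with vehicle (adjusted p = 1.13e-03). CSNK1A1, the kinase that starts the marking of beta-catenin, rose to 16.8 ± 0.297 FPKM with doxycycline, against 12.5 ± 0.382 FPKM with vehicle (adjusted p = 6.44e-04). CSNK1D, another casein kinase, averaged 8.58 FPKM with doxycycline and 7.30 FPKM with vehicle (adjusted p = 0.0334), a call that ended without any 1 library except vehicle replicate 1 (0.0650 to 0.0911).

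Of 15 tested TCF factors and cofactors 2 fell and 13 did not pass, which is 13.3% called beside 28.8% of all genes. TLE4, a corepressor that binds TCF factors, had 3.35, 3.38 and 3.14 FPKM with doxycycline and 4.90, 4.65 and 4.76 FPKM with vehicle (adjusted p = 1.43e-03). TBL1X, a cofactor of beta-catenin and of corepressors, fell to 10.4 ± 0.498 FPKM with doxycycline, against 13.1 ± 0.369 FPKM with vehicle (adjusted p = 4.75e-03). TCF7L2, the main TCF factor of liver cells, had 7.46, 4.43 and 4.08 FPKM with doxycycline and 3.45, 3.23 and 3.64 FPKM with vehicle, and did not pass (adjusted p = 0.124).

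Other known targets split as well. Of 11 tested beta-catenin genes of liver and liver tumours 4 fell and 3 rose (63.6% called). SLC13A3, a dicarboxylate transporter, fell to 1.65 ± 0.119 FPKM with doxycycline, against 6.48 ± 0.532 FPKM with vehicle (adjusted p = 5.20e-05). CPN2, a carboxypeptidase subunit, RGN, regucalcin, and RHBG, an ammonium transporter, had 5.74 ± 0.249, 3.03 ± 0.126 and 2.79 ± 0.595 FPKM with doxycycline, against 14.4 ± 0.364, 7.23 ± 0.352 and 6.05 ± 0.603 FPKM with vehicle, and all 3 fell (adjusted p = 2.44e-05, 6.97e-05 and 3.58e-03). Singled out after a look at their values, the 3 that rose were the netrin NTN4 (1.76-fold), the cytochrome P450 CYP27A1 (1.39-fold) and the transcription factor TBX3 (1.37-fold). GLUL, glutamine synthetase and a classic liver target, had 20.1, 22.3 and 18.7 FPKM with doxycycline and 12.3, 28.7 and 28.7 FPKM with vehicle. Vehicle replicate 1 thus lay below and the other vehicle libraries above all doxycycline libraries (adjusted p = 0.857). Without vehicle replicate 1 the log2 fold change of GLUL was -0.48 (adjusted p = 0.0135). It was 0.0995 without vehicle replicate 2 and 0.101 without vehicle replicate 3 (adjusted p = 0.865 and 0.863), so its sign depended on the library left out.

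Of 14 tested targets known from other tissues 7 rose and 3 fell (71.4% called), with a median log2 fold change of 0.34. NRCAM, a cell adhesion molecule, had 19.2, 19.3 and 18.3 FPKM with doxycycline, against 8.11, 7.82 and 7.82 FPKM with vehicle (log2 fold change 1.16, adjusted p = 1.75e-05). MSX1, a homeobox factor, and PPARD, a nuclear receptor, rose 2.05-fold and 1.72-fold (adjusted p = 3.78e-05 and 1.36e-03). ENC1, an actin-binding protein, fell to 12.7 ± 0.463 FPKM with doxycycline, against 30.95 ± 1.41 FPKM with vehicle (adjusted p = 2.44e-05). CCND1, cyclin D1, named after its values were seen, had 102, 101 and 102 FPKM with doxycycline, against 69.6, 69.7 and 70.3 FPKM with vehicle (adjusted p = 2.67e-05). Of 3 tested planar polarity genes 1 rose and 1 fell (66.7% called). PRICKLE2 rose 1.45-fold, a call that ended without doxycycline replicate 1 or 2 or vehicle replicate 3 (adjusted p = 0.0180, up to 0.0585). DAAM1 fell to 4.80 ± 0.0533 FPKM with doxycycline, against 6.60 ± 0.160 FPKM with vehicle (adjusted p = 1.12e-03).

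**Figure D4:**
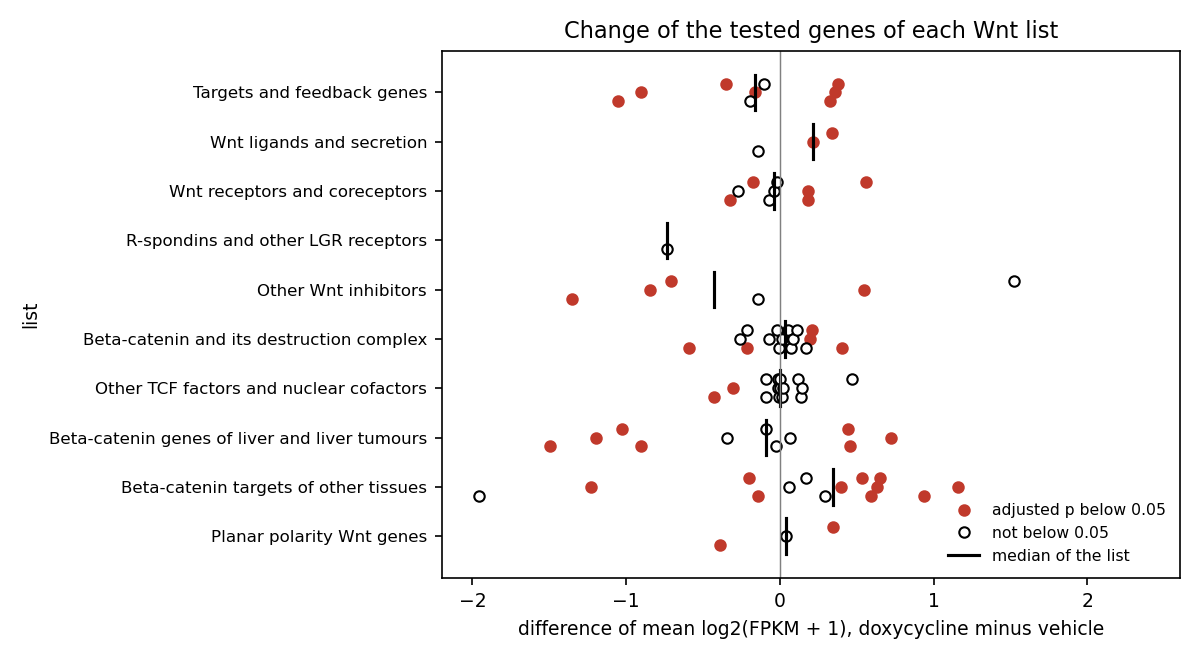
Difference of mean log2(FPKM + 1), doxycycline minus vehicle (horizontal axis), of every tested gene of 10 lists (vertical axis), filled where the adjusted p was below 0.05, with a black bar at the median of each list. Filled points lie on both sides of 0 in 7 of the 10 lists.

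MYC, another known target, and KREMEN1, a receptor for DKK1, were named after their values were seen because their libraries disagreed. MYC had 3.19, 2.90 and 2.99 FPKM with doxycycline and 3.20, 23.4 and 36.4 FPKM with vehicle. Vehicle replicate 1 was thus at the doxycycline level, and MYC did not pass (adjusted p = 0.116). KREMEN1 had 27.3, 31.9 and 31.1 FPKM with doxycycline and 3.62, 16.5 and 14.7 FPKM with vehicle, and did not pass either (adjusted p = 0.0696). Other listed genes also had an odd library. With vehicle, BMP4, a target of other tissues, had 31.1, 10.9 and 10.7 FPKM, and the liver marker FOXA2 had 9.01, 33.0 and 30.9 FPKM. With doxycycline, PROX1, also a target of other tissues, had 3.11, 2.55 and 11.1 FPKM. No such jump was seen in the 8 better expressed Wnt targets and feedback genes, in which the highest library of a group was at most 1.18 times the lowest (SP5).

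**Figure D5:**
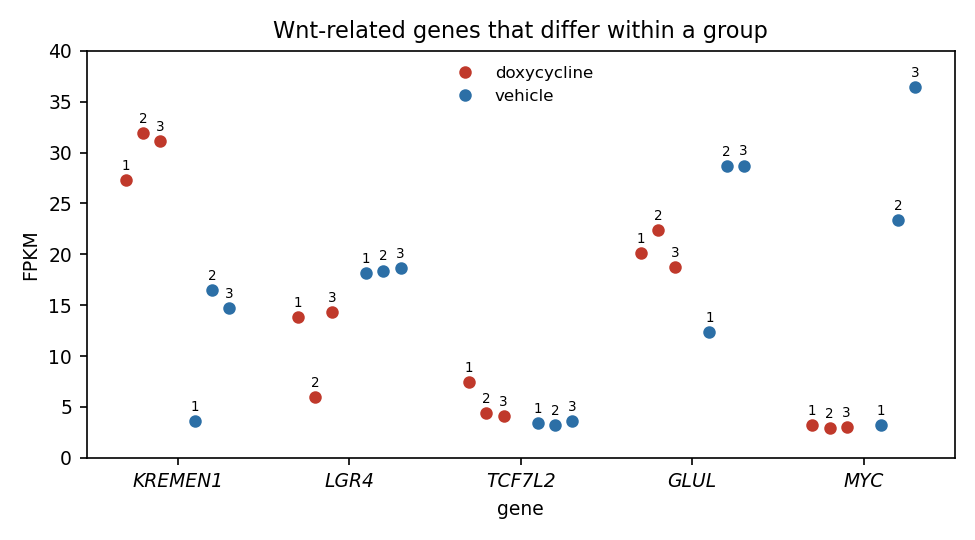
FPKM (vertical axis) of 5 Wnt-related genes (horizontal axis) in each library, doxycycline in red left of vehicle in blue, with the replicate number above each point. Vehicle replicate 1 stands apart in KREMEN1, GLUL and MYC, doxycycline replicate 2 in LGR4 and doxycycline replicate 1 in TCF7L2.

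The genes whose profile over the 6 libraries lay nearest to that of SP5, by the mean absolute difference of log2(FPKM + 1) centred on the vehicle mean, were DGKK (0.0362), a diacylglycerol kinase, SERPIND1 (0.0420), heparin cofactor, and PHYHIPL (0.0429). DGKK averaged 4.18 FPKM with doxycycline and 10.04 FPKM with vehicle. SERPIND1 averaged 27.1 FPKM with doxycycline and 56.1 FPKM with vehicle. PHYHIPL averaged 14.9 FPKM with doxycycline and 32.9 FPKM with vehicle.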

How the data were processed

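The deposited values are FPKM that the authors computed for each library. FastQC, cutadapt, HISAT2 and StringTie are named in the submitters' processing notes, with the build GRCh37, while versions, options and annotation release are not given in the sources used here. Libraries were strand-specific and poly(A)-selected, per the labels' protocols. All 11461 entries are protein-coding, the larger group mean was at least 0.500 FPKM in each, and for 5 symbols listed more than once the entry with the highest mean was used. FPKM carries no counts, so depth is unknown and no counting interval is given.

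The 10469 genes whose mean FPKM reached 1 were fitted in R 4.3.3 with limma 3.58.1, with log2(FPKM + 1) as the value, group alone as the term and a mean-variance trend. The adjusted p is two-sided Benjamini-Hochberg over all of them. Such log2 fold changes understate changes of weakly expressed genes, and "fold" means a ratio of mean FPKM. On simulated data of 10469 genes, 77.9% of changes of 0.5, 93.9% of changes of 1 and 97.0% of changes of 2 on the log2 scale were recovered. Of 193 calls 14 were false (7.25%). The simulation changed only 68, 66 and 66 genes and drew noise independently for each gene, while 28.8% of genes were called in the data. Its rates therefore do not carry over to the main fit. Figures were drawn with matplotlib 3.10.9 in python 3.11.15.

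Members and lists were chosen with earlier results of these data known. Genes were named by rule: all members, up to 4 called genes of each list (those that changed most on the log2 scale), the most abundant tested gene of a list with none, CTNNB1, TCF7L2, GLUL and NR1I3, and the 3 profiles nearest to the member that changed most. The labels do not say whether libraries came from separate cultures, so p-values measure the spread between these libraries, which may be technical. Alternatives changed the pseudocount (0.1 or 0.5), the filter (none, or a mean FPKM of 5), the scaling (median-ratio or quantile), the moderation (no trend, or robust), the entries (summed per symbol), the design (replicate number as a block) and the libraries (each left out in turn). Symbols not in the table were not analysed here.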

Additional observations from a re-analysis of the deposited data

How the results depend on the processing

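With the replicate number as a block the number of changed Wnt genes was 7, as in the main analysis, 2343 of all genes were called in place of 3012, and the calls of CSNK1D, PORCN, RYK and WNT11 ended (adjusted p = 0.0751, 0.0972, 0.0918 and 0.0645). The numbers may not pair the libraries: same-numbered libraries had correlations of 0.01, -0.03 and 0.09 between their deviations from the group means, and not every library correlated best with its own number. Each of the 9 Wnt genes kept its direction under all alternatives, and SP5, DKK1, LGR5, NKD1, NOTUM and RNF43 kept their calls. Leaving out 1 library at a time gave log2 fold changes of -0.19 to -0.14 for AXIN2 and -0.36 to -0.0821 for TCF7, with 6 to 8 changed Wnt genes, 3 to 5 of them lower and 3 higher, and 2309 to 2378 changed genes overall. TCF7 was not among the genes with a minimum mean FPKM of 5. The log2 fold change of GLUL, -0.092 with all libraries, reversed to 0.0995 without vehicle replicate 2 and to 0.101 without vehicle replicate 3, and ranged from -0.477 to 0.101 with 1 library left out, and the cause was not tested. For the 33 other genes named by rule, 475 of their results under the alternatives stayed on the same side of the threshold, 37 lost the call, 2 gained it and 2 reversed. No scaling moved the median of all genes by more than 0.1. Unknown depth limits what can be said of genes near 1 FPKM.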
